A study of Mus musculus with 7 samples.

Results

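Hox genes encode homeodomain transcription factors and lie in 4 clusters, HoxA to HoxD, whose genes share paralogue numbers because the clusters arose by duplication. The genes of this report were all rows of the deposited expression table whose symbol names a member of these clusters, which gave 34 of 16167 listed genes. HoxA holds 10 of them, HoxB 8, HoxC 7 and HoxD 9. The low-number end of a cluster is expressed early and far forward in the embryo, and the high-number end late and far back. In the mouse kidney the Hox11 paralogues of the nephron progenitors act with Eya1 and Pax2 to switch on Six2 and Gdnf, Hox10 paralogues act in the stroma, and Hoxb7 is a classical gene of the ureteric bud.

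RNA came from whole kidneys of mouse embryos at E15.5, with 4 mutant and 3 control libraries. Mutants were Six2-Cre; Irx3/5(loxP/loxP), with both floxed copies of the Iroquois homeobox genes Irx3 and Irx5 open to a Cre recombinase that is active in nephron progenitors. Controls were Irx3/5(loxP/+) littermates, which carry 1 floxed copy, and their labels name no Cre. All 7 libraries therefore carry a floxed allele, and the deletion and the Cre transgene cannot be told apart. The labels give kidney pairs but not the number of embryos behind a library, nor a strain, so p-values describe the spread between these libraries. Libraries held 40511920 to 69028943 reads in listed genes. Irx3 was at 6.63, 3.98, 5.57 and 6.75 FPKM in mutant replicates 1 to 4 and at 14.7, 14.2 and 12.7 FPKM in control replicates 1 to 3. Irx5 was not lower, at 2.05, 0.895, 1.13 and 2.03 FPKM in mutants and at 1.36, 1.55 and 1.59 FPKM in controls. Six3 was at 4.37 to 5.41 FPKM in mutants and at 0.0158 to 0.0671 FPKM in controls. Values are FPKM (fragments scaled by gene length and library size), so levels of different genes can be set side by side. Such an order rests on the gene lengths used, which are not given. Fold changes were taken on log2(FPKM + 1), mutant over control, where low genes appear to change less than they do, and a gene was called at a limma adjusted p under 0.05.

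Most Hox genes were expressed in these kidneys, and Hoxc10 and Hoxa10 stood at the top. Hoxc10 had the highest mean FPKM over the 7 libraries (50.1), followed by Hoxa10 (47.2), Hoxb7 (38.6), Hoxb6 (32.0), Hoxd9 (30.5) and Hoxa11 (30.4). Hoxd8, Hoxb8, Hoxb2, Hoxd10, Hoxb9, Hoxb3 and Hoxd11 came next with means of 21.3 to 28.6 FPKM. The low end was formed by Hoxa2 (2.91), Hoxa4 (2.26), Hoxc5 (1.78), Hoxd1 (1.03) and Hoxd13 (0.249). Hoxc10 and Hoxa10 changed places in mean FPKM between the groups: Hoxc10 lay at 51.0 to 57.4 FPKM in mutants and 41.8 to 44.9 in controls, and Hoxa10 at 38.7 to 50.1 in mutants and 44.5 to 50.9 in controls. By FPKM Hoxa10 was thus the higher of the pair in 2 of 3 controls and Hoxc10 in all 4 mutants. By reads Hoxa10 was the higher in every library, at 5835 to 10882 against 3523 to 5843 for Hoxc10. Which gene stands first therefore depends on the gene lengths. From Hoxb6 to Hoxb9 in this order, the library ranges of adjacent genes overlapped. Of the 34 genes, 32 reached 1 FPKM in 3 libraries and were tested. Hoxd13, with 21 to 45 reads a library, was not.

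**Figure D1:**
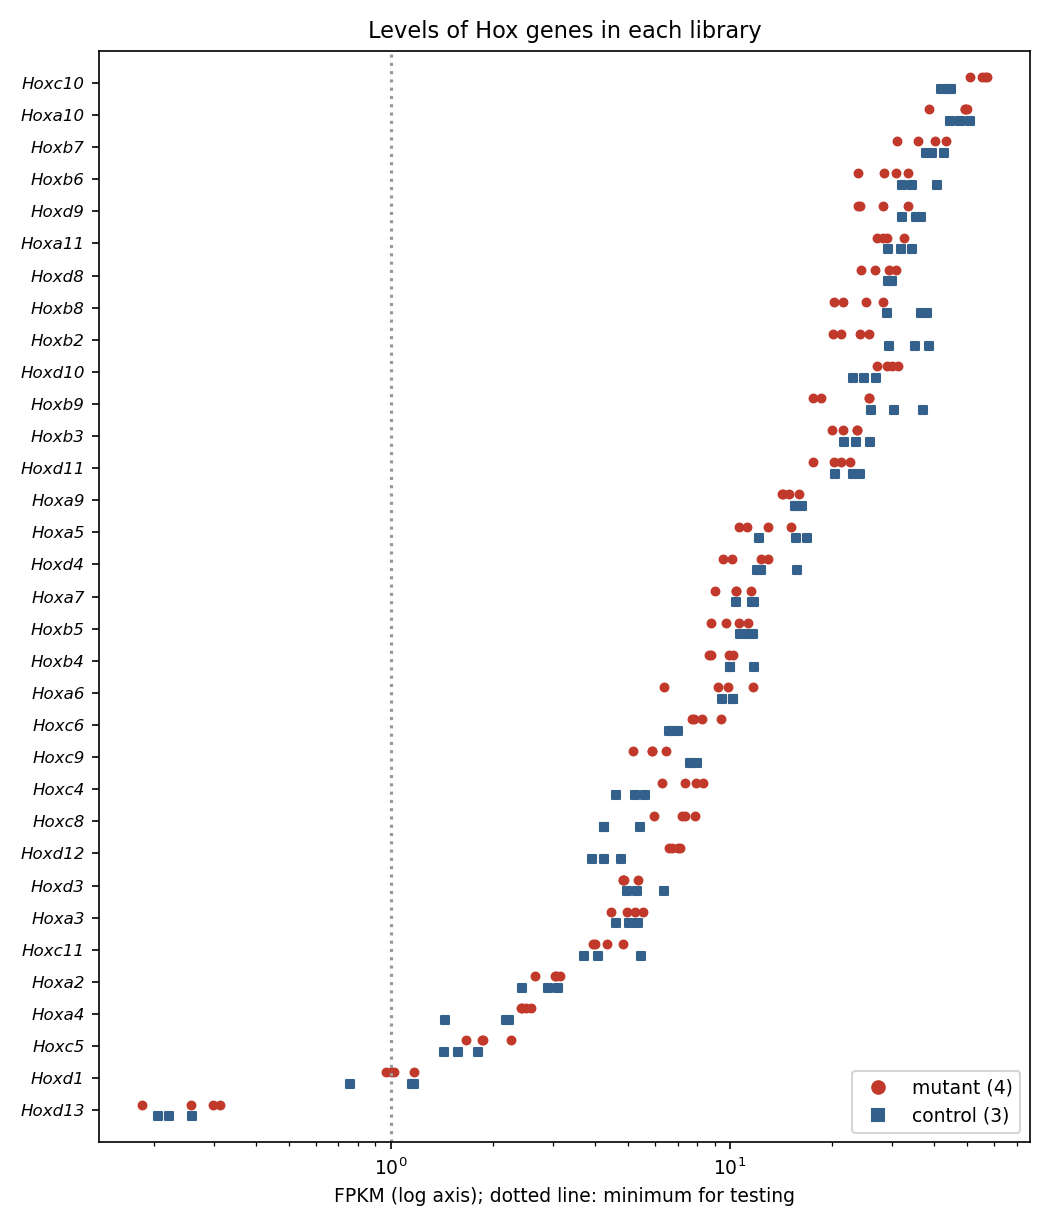
FPKM of Hox genes on a log axis, ordered by their mean over the 7 libraries, with mutants as red circles and controls as blue squares. Hoxc10 and Hoxa10 lie at the top, and Hoxd13 lies below the dotted line at 1 FPKM. The red and blue values do not overlap for Hoxa4, Hoxb2, Hoxb8, Hoxb9, Hoxc4, Hoxc6, Hoxc8, Hoxc9, Hoxc10, Hoxd10 and Hoxd12.

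Of the 32 tested Hox genes, limma called 3, or 9.38%, against 1.53% of all 13466 genes tested. Hoxd12 and Hoxc10 rose, in a table where 0.475% of genes did, and Hoxb2 fell, where 1.05% did. The other 29 did not pass. Whole kidneys cannot tell fewer cells of a type from less RNA per cell, here or below. In the authors' deposited table, a DESeq2 test, 8 of the 34 had an adjusted p under 0.05 (23.5%, against 5.49% of all genes with a p). These were Hoxc4, Hoxc8, Hoxc10 and Hoxd12, higher (1.75% of all genes), and Hoxb2, Hoxb8, Hoxb9 and Hoxc9, lower (3.74%). All 4 mutants lay to one side of all 3 controls for 11 tested Hox genes (34.4%, against 14.5% of all genes), 7 higher (5.93% of all genes) and 4 lower (8.61%). The median log2 fold change of the tested members was -0.10, against -0.0020 over all genes, and the median of its size was 0.156, against 0.0807. An unadjusted p under 0.05 was found for 13 members, with 13.7% of all genes tested at that level. The count of 3 depended on single libraries: omission of control replicate 1, control replicate 2, mutant replicate 2 or mutant replicate 4 left 0, with 10 to 13 members at an unadjusted limma p under 0.05. Omission of control replicate 3 left Hoxd12 alone. Without mutant replicate 3 Hoxd12 and Hoxc8 were called, and Hoxb2 and Hoxc10 were not. Without mutant replicate 1 the count was 6, with Hoxb2, Hoxb8, Hoxc9, Hoxc10, Hoxd9 and Hoxd12. Calls over all genes moved in the same fits, so the swing is not particular to Hox genes. From 206 they came to 14, 11, 42 and 33 in the omissions that left 0 Hox calls, in the order given. They came to 54 without control replicate 3, 124 without mutant replicate 3 and 486 without mutant replicate 1.

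**Figure D2:**
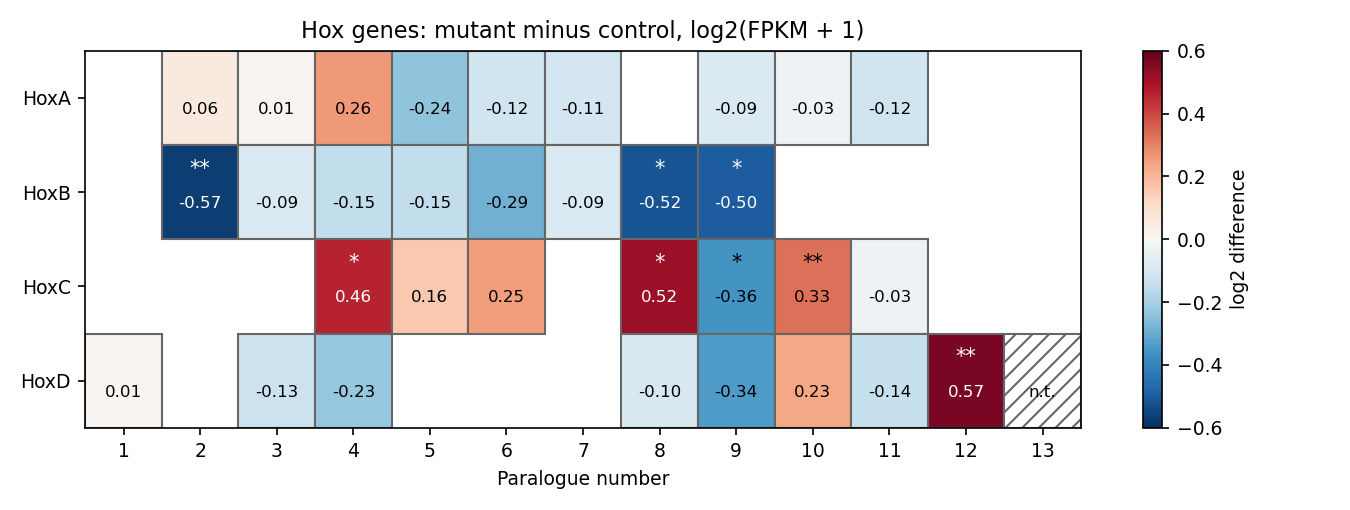
Mean log2(FPKM + 1) of mutants minus that of controls for Hox genes by cluster (rows) and paralogue number (columns). Red is higher and blue lower in mutants, ** marks genes called by limma, * genes called only in the authors' deposited table, and n.t. marks Hoxd13, which was not tested. The HoxB row is blue throughout, from -0.09 to -0.57, while HoxC runs from -0.36 at Hoxc9 to 0.52 at Hoxc8.

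Hoxd12 (ENSMUSG00000001823.6), a posterior gene of limb and urogenital patterning, had the smallest p of the Hox genes. It stood at 6.61, 7.01, 7.13 and 6.72 FPKM in mutant replicates 1 to 4 and at 4.26, 3.91 and 4.77 FPKM in control replicates 1 to 3. The mutants were tightly grouped and all above the controls, and the log2 fold change was 0.57 (SE 0.076; limma adjusted p = 0.0156; 496 to 903 reads). The limma adjusted p was 0.0915 without control replicate 1, 0.121 without control replicate 2, 0.0545 without mutant replicate 2 and 0.0604 without mutant replicate 4. Its neighbour Hoxd13 was near the floor of the data, with 0.264 ± 0.058 FPKM in mutants and 0.229 ± 0.027 in controls (SD, n = 4 and 3). On the other side Hoxd11 did not pass the test, as described below.

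Hoxc10 (ENSMUSG00000022484.8), which patterns the lumbar level, was at 56.3, 57.4, 55.4 and 51.0 FPKM in mutants and at 43.8, 41.8 and 44.9 FPKM in controls. The groups did not overlap, and the log2 fold change was 0.33 (SE 0.064; limma adjusted p = 0.0466). Hoxb2 (ENSMUSG00000075588.7), best known for patterning the hindbrain, was at 25.6, 20.1, 21.3 and 24.1 FPKM in mutants and at 35, 38.5 and 29.5 FPKM in controls. All mutants lay below the lowest control, and the log2 difference was -0.57 (SE 0.11; limma adjusted p = 0.0466). Both calls were kept without mutant replicate 1 and lost in each of the other 6 omissions, where adjusted p ran up to 0.257 for Hoxc10 and 0.237 for Hoxb2. In those omissions the log2 fold changes stayed between 0.30 and 0.37 and between -0.67 and -0.48.

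The 5 genes called only in the authors' deposited table missed limma's threshold, and each had its groups apart. Hoxc8, a gene of the brachial and thoracic levels, was at 7.22, 7.37, 5.97 and 7.89 FPKM in mutants and at 5.43, 4.24 and 4.26 in controls (log2 fold change 0.52, SE 0.11; limma adjusted p = 0.0569). Hoxc4, of the cervical level, was at 7.93, 6.28, 8.31 and 7.34 FPKM in mutants and at 5.62, 5.25 and 4.61 in controls (0.46, SE 0.10; limma adjusted p = 0.0714). Mutant replicate 3 was the lowest mutant for Hoxc8 and the highest for Hoxc4. Hoxc9, which sets thoracic motor neuron identity, was at 6.46, 5.18, 5.87 and 5.88 FPKM in mutants and at 8.01, 7.65 and 7.61 in controls (-0.36, SE 0.078; limma adjusted p = 0.0698). Hoxb8, active in blood progenitors and at thoracic levels, was at 28.3, 20.3, 21.5 and 25.2 FPKM in mutants and at 36.6, 38.1 and 29.1 in controls (-0.52, SE 0.13; limma adjusted p = 0.0938). Hoxb9, of the thoracic level, was at 25.6, 18.5, 17.5 and 25.6 FPKM in mutants and at 26.0, 37.0 and 30.5 in controls (-0.50, SE 0.17; limma adjusted p = 0.205). For Hoxb8 and Hoxb9 the gap between the groups was under 1 FPKM, narrower than the spread within either group. In the authors' deposited table the adjusted p was 0.00245 for Hoxc8, 0.00327 for Hoxc4, 0.00733 for Hoxc9, 0.00608 for Hoxb8 and 0.0469 for Hoxb9. The sign of all 8 genes named above was the same in every alternative setting run.

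**Figure D3:**
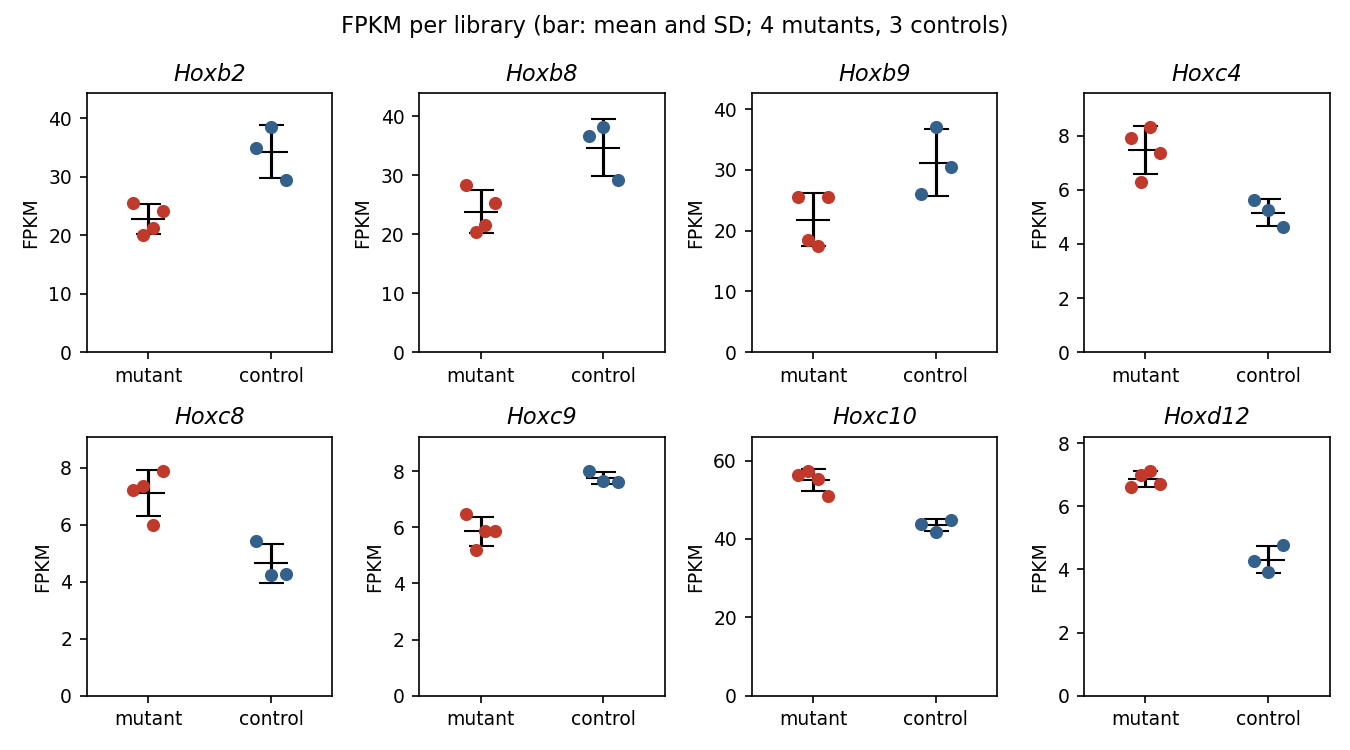
FPKM per library of the 8 Hox genes called by limma or in the authors' deposited table, mutants (red, n = 4) left of controls (blue, n = 3), with mean and SD as bars and axes from 0. Hoxb2, Hoxb8, Hoxb9 and Hoxc9 are lower in mutants; Hoxc4, Hoxc8, Hoxc10 and Hoxd12 are higher, and no mutant point passes a control point.

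Start-site sequence is shown for those of these 8 genes that RefSeq's promoter table holds, so that a called gene and its upstream region can be read together. The table, on build GRCm38.p6, matched 20 of the 34 Hox genes with 22 windows of 300 bases, each running from 250 bases before to 50 after the start. Capitals mark matches on either strand to TGATNNAT, the core bound by Hox with its partner Pbx, and to TTTATNG, of the kind that posterior Hox proteins bind. ACANNTGT, described for Iroquois proteins of Drosophila, was searched too. The windows lie on the plus strand at chr11:96281655-96281954 (Hoxb8), chr15:103034145-103034444 (Hoxc4) and chr2:74674763-74675062 (Hoxd12).
Hoxb8: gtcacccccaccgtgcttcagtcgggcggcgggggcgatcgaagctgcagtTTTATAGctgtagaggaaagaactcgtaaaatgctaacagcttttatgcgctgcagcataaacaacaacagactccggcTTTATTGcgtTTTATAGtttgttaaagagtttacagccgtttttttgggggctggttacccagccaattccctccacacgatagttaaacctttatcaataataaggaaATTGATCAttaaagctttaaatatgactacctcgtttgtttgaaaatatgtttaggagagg
Hoxc4: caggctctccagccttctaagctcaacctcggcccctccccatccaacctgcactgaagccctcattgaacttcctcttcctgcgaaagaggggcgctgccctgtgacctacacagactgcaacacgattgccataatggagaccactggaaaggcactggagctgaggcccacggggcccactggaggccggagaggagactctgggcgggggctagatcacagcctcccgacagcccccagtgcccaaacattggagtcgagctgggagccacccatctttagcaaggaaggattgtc
Hoxd12: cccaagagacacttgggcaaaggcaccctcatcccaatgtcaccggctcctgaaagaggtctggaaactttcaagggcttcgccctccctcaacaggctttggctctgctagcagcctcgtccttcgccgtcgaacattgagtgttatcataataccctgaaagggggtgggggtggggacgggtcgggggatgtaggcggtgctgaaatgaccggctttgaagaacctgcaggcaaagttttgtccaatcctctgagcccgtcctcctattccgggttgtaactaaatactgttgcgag
Hoxb8, lower in the deposited test, held 1 TGATNNAT and 3 TTTATNG matches, none overlapping another, and Hoxc4 and Hoxd12 held no match to any of the 3 motifs. Among Hox windows TGATNNAT stood in 3 of 22 (13.6%, against 8.86% of all 32817 windows), in Hoxa2, Hoxb8 and Hoxd11. TTTATNG stood in 2 of 22 (9.09%, against 10.9%), in Hoxb8 and Hoxd4. ACANNTGT stood in 1 of 22 (4.55%, against 7.38%), in Hoxa3.

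By cluster, fold changes leaned down in HoxB and up in HoxC, with few single genes called by limma. Each of the 8 HoxB fold changes was negative (median -0.22), as were 6837 of all 13466 genes tested. Limma called 1 of the 8, 4 had an unadjusted limma p under 0.05 and 3 passed in the authors' deposited table. In HoxC 5 of 7 members were above 0, with a median of 0.25 and 1 called. There 5 had an unadjusted limma p under 0.05 and 4 passed in the authors' deposited table. In HoxD these counts were 3 and 1. Over all genes, 1.53% were called by limma, 13.7% had an unadjusted limma p under 0.05 and 5.49% passed in the authors' deposited table. HoxA (3 above and 6 below 0, median -0.09, 0 called, with 1 at an unadjusted limma p under 0.05 and 0 in the authors' deposited table) and HoxD (3 above and 5 below, median -0.12, 1 called) lay nearer to 0. Summed over its genes, HoxB came to 198, 151, 169 and 189 FPKM in mutants and 217, 232 and 215 FPKM in controls. HoxC came to 92.4, 89.9, 89.5 and 88.0 FPKM in mutants and 75.0, 71.5 and 75.2 FPKM in controls. Neither pair of ranges overlapped. As a share of all Hox FPKM, HoxB held 33.3% ± 2.08 in mutants and 38.6% ± 1.16 in controls, and HoxC 17.0% ± 0.97 in mutants and 12.9% ± 0.79 in controls (SD, n = 4 and 3). HoxA and HoxD kept similar shares, at 25.3% ± 0.82 and 24.4% ± 0.61 in mutants and 24.7% ± 0.85 and 23.8% ± 0.87 in controls. Hoxc10 makes up most of the HoxC sum, and the other 6 genes alone summed to 32.5 to 37.0 FPKM in mutants and 29.7 to 31.2 in controls. The sums are descriptions and carry no test.

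**Figure D4:**
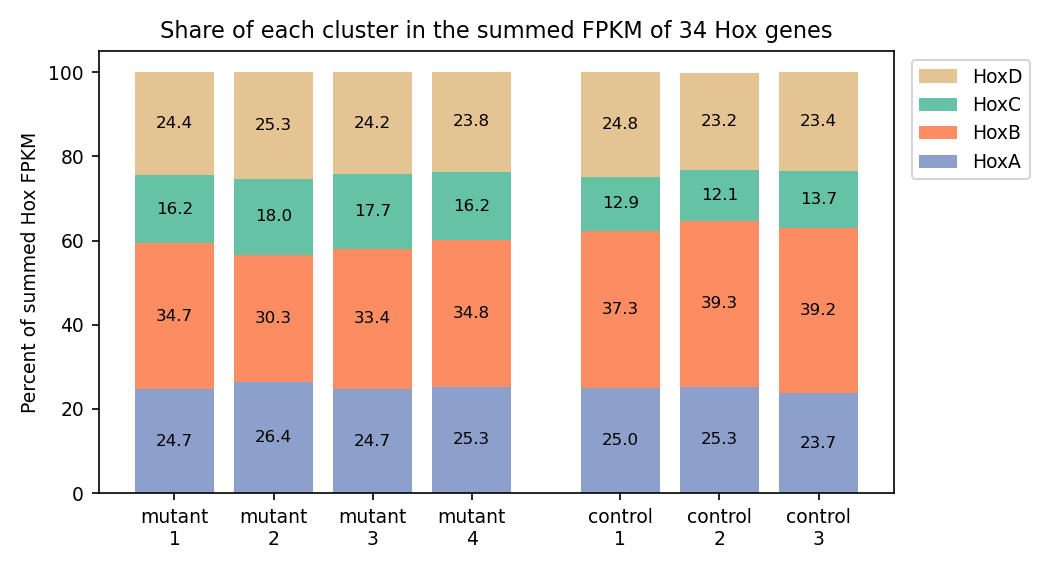
Share of each cluster in the summed FPKM of the 34 Hox genes, 1 stacked bar per library, mutants left and controls right, with the percent written in each block. The HoxB block spans 30.3% to 34.8% in mutants and 37.3% to 39.3% in controls, and the HoxC block 16.2% to 18% in mutants and 12.1% to 13.7% in controls.

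Within HoxB the members other than Hoxb2, Hoxb8 and Hoxb9 overlapped between groups. Hoxb6 averaged 29.1 ± 4.11 FPKM in mutants and 35.7 ± 4.5 in controls (log2 fold change -0.29, SE 0.12; limma adjusted p = 0.33). Hoxb7, the ureteric bud gene, was at 43.4, 31.1, 35.7 and 40.3 FPKM in mutants and at 37.8, 39.3 and 42.8 in controls, with 1 mutant above and 2 below all controls. Its log2 fold change of -0.09 had a 95% interval of -0.34 to 0.15. Hoxb3, Hoxb4 and Hoxb5, of the cervical levels, averaged 22.2, 9.40 and 10.1 FPKM in mutants and 23.6, 10.6 and 11.3 FPKM in controls. Among the mutants, replicate 1 was the highest for 6 of the 8 HoxB genes and replicate 2 the lowest for 6. Beside this, 12 ureteric bud and collecting duct markers summed to 354, 309, 318 and 320 FPKM in mutants and 258, 278 and 277 FPKM in controls, and their part in the HoxB values was not tested. Array weights, which count libraries near their group more, gave mutant replicate 1 the lowest weight (0.281).

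Within HoxC and HoxD, some adjacent genes differed in sign and others did not. Fold changes were above 0 for each of Hoxc4, Hoxc5, Hoxc6 and Hoxc8, and below 0 for each of Hoxd3, Hoxd4, Hoxd8 and Hoxd9. Hoxc8 and Hoxc10 were higher and Hoxc9, which lies between them, lower, so that the ratio of Hoxc9 to Hoxc8 within a library was 0.895, 0.703, 0.983 and 0.745 in mutants and 1.47, 1.81 and 1.78 in controls. By FPKM Hoxc8 was the higher of the pair in all mutants and Hoxc9 in all controls, an order that rests on the gene lengths used. By reads Hoxc9 was the higher in mutant replicates 1 and 3 (846 and 657, against 727 and 514 for Hoxc8). Hoxc8 was the higher by reads in mutant replicates 2 and 4 (644 and 756, against 589 and 733). The ratio of Hoxc10 to Hoxc9 was 8.72, 11.1, 9.43 and 8.68 in mutants and 5.47, 5.46 and 5.91 in controls. Hoxd10 stood at 0.937, 1.26, 1.13 and 1.03 of the Hoxd9 FPKM in mutants and at 0.760, 0.681 and 0.720 in controls. Hoxd12 stood at 0.311, 0.399, 0.352 and 0.297 of the Hoxd11 FPKM in mutants and at 0.176, 0.170 and 0.234 in controls. These ratios do not depend on the scaling of a library. For each of the 28 neighbour pairs the log2 ratios went into a two-sided exact permutation test, with 35 possible assignments of the libraries. The smallest possible p, 0.0286, was reached by 6 pairs, the 4 above, Hoxb7 to Hoxb6 and Hoxb8 to Hoxb7, and after adjustment over the 28 the value was 0.133, so none passed. With 35 assignments a pair at this p could pass only if most of the 28 reached it. The test could thus hardly pass any pair, and the lack of a call says little.

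Paralogues of the same number were compared in the same way, in 32 pairs across clusters. The smallest p was reached by 10 pairs, with an adjusted exact permutation p of 0.0914, so none passed here either. The same limit holds, since most of the 32 pairs would have to reach the smallest p for any to pass. Hoxc8 against Hoxb8 had the widest one: the ratio was 0.255, 0.363, 0.277 and 0.313 in mutants and 0.148, 0.111 and 0.146 in controls, a log2 difference of 1.16. Hoxc4 stood at 0.716 to 0.917 of Hoxb4 in mutants and at 0.461 to 0.526 in controls (0.70). Hoxc6 stood at 0.247 to 0.329 of Hoxb6 in mutants and at 0.165 to 0.206 in controls (0.58). These 3 pairs reached the smallest p, which is possible only where all mutants lie to one side of all controls. In each the ratio of the HoxC to the HoxB gene was the higher one in mutants. Other wide differences did not set HoxC against HoxB. The log2 difference was -0.78 for Hoxd4 over Hoxc4 (exact permutation p = 0.0571), -0.72 for Hoxd8 over Hoxc8 (0.0286), -0.67 for Hoxb2 over Hoxa2 (0.0571) and -0.63 for Hoxd4 over Hoxa4 (0.0286). For Hoxc9 and Hoxb9, which both were lower, the log2 difference was 0.11 (exact permutation p = 0.571).

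**Figure D5:**
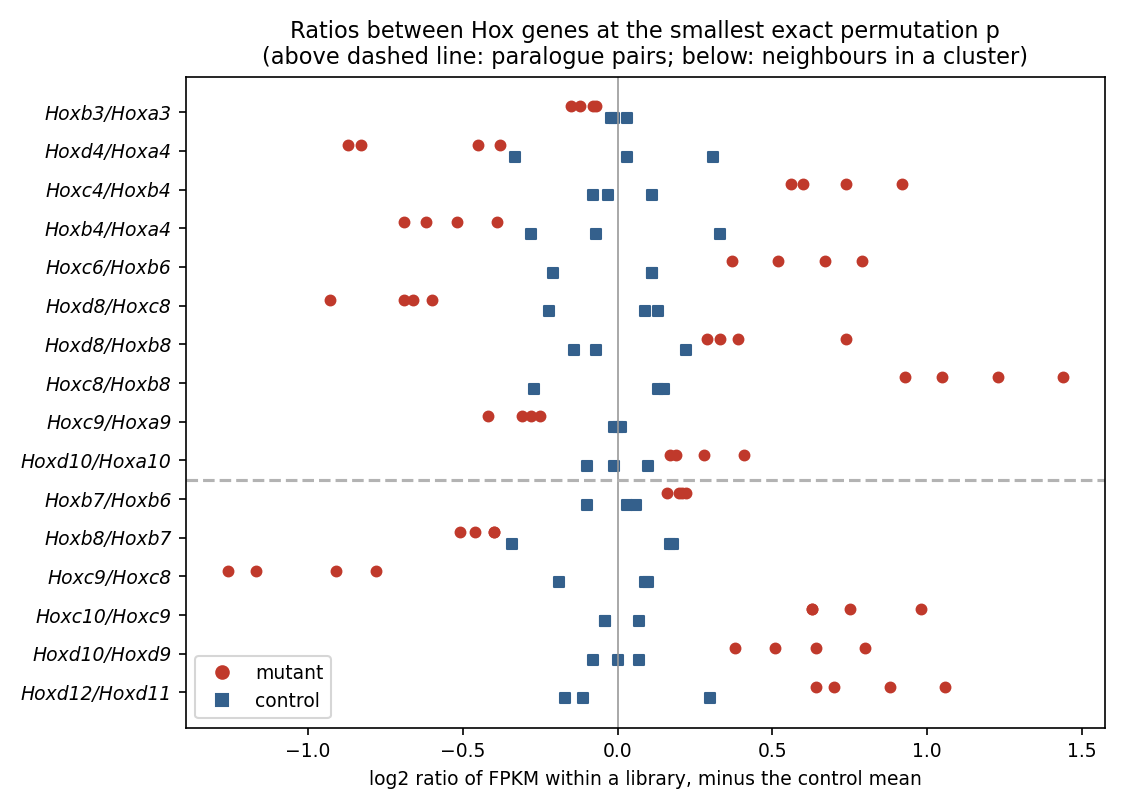
Log2 ratio of FPKM between a pair of Hox genes within each library, minus the control mean, for the 16 pairs at the smallest exact permutation p (0.0286, before adjustment). Mutants are red circles and controls blue squares; the mutant points of Hoxc8/Hoxb8 lie farthest right and those of Hoxc9/Hoxc8 farthest left, around mean differences of 1.16 and -1.03.

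All 4 genes of paralogue group 9 had negative fold changes (median -0.35) and none was called by limma. An unadjusted limma p under 0.05 was found for 3, and 2 passed in the authors' deposited table. Of all 13466 genes tested, 6837 had negative fold changes, 1.53% were called by limma and 13.7% had an unadjusted limma p under 0.05. In the authors' deposited test, 5.49% of all genes passed. In paralogue group 10, Hoxc10 rose and the other 2 did not pass. Hoxd9 was at 33.4, 23.9, 24.1 and 28.2 FPKM in mutants and at 35.3, 36.6 and 32.1 in controls, with mutant replicate 1 inside the control range (log2 fold change -0.34, SE 0.12; limma adjusted p = 0.213). Hoxa9 was at 16, 14.2, 14.3 and 14.9 FPKM in mutants and averaged 15.8 ± 0.45 in controls, where every control lay above 3 of the mutants. The log2 fold change was -0.09 with a 95% interval of -0.23 to 0.06. Summed, group 9 came to 69.9 ± 9.83 FPKM in mutants and 89.4 ± 6.46 in controls. Hoxd10, a partner of Hoxa10 and Hoxc10 in kidney stroma, was at 31.3, 30.0, 27.1 and 29.1 FPKM in mutants and at 26.9, 24.9 and 23.1 in controls (0.23, SE 0.074; limma adjusted p = 0.194). Hoxa10 was at 49.2, 50.1, 38.7 and 49.2 FPKM in mutants and at 47.6, 50.9 and 44.5 in controls, where only mutant replicate 3 left the control range (-0.03, 95% interval -0.26 to 0.19). Group 10 summed to 131 ± 7.62 FPKM in mutants and 116 ± 3.12 in controls.

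The Hox11 paralogues, which the mouse metanephros needs for its induction, did not pass the test. Hoxa11 was at 32.6, 27.1, 28.3 and 29.0 FPKM in mutants and at 32.0, 34.3 and 29.3 in controls. Hoxd11 was at 21.3, 17.6, 20.2 and 22.6 FPKM in mutants and at 24.1, 23.1 and 20.4 in controls. Hoxc11, the low one, was at 4.35, 3.93, 4.00 and 4.82 FPKM in mutants and at 3.72, 4.09 and 5.48 in controls. All 3 overlapped between groups, with log2 fold changes of -0.12 (95% interval -0.31 to 0.06), -0.14 (-0.35 to 0.08) and -0.03 (-0.30 to 0.24). Their sum was 54.0 ± 4.32 FPKM in mutants and 58.8 ± 3.28 in controls, and a fall of about that size could not be told from the spread.

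Of the members with paralogue numbers up to 8 outside HoxB that are not yet described, Hoxa4 and Hoxc6 had their groups apart and the others overlapped. Hoxa4 averaged 2.49 ± 0.072 FPKM in mutants and 1.95 ± 0.44 in controls (log2 fold change 0.26; limma adjusted p = 0.337). Control replicate 3, at 1.44, lay well below control replicates 1 and 2, at 2.23 and 2.18, and adds to the difference. Hoxc6 averaged 8.31 ± 0.75 FPKM in mutants and 6.80 ± 0.21 in controls (0.25; limma adjusted p = 0.17). Hoxc5, between Hoxc4 and Hoxc6, averaged 1.91 ± 0.25 FPKM in mutants and 1.61 ± 0.19 in controls. In HoxA, Hoxa2 and Hoxa3 averaged 2.98 and 5.05 FPKM in mutants and 2.82 and 5.01 FPKM in controls. Hoxa5, Hoxa6 and Hoxa7 averaged 12.4, 9.28 and 10.3 FPKM in mutants and 14.9, 9.94 and 11.3 FPKM in controls. In HoxD, Hoxd1, Hoxd3, Hoxd4 and Hoxd8 averaged 1.04, 4.97, 11.2 and 27.8 FPKM in mutants and 1.03, 5.56, 13.3 and 29.8 FPKM in controls.

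Gene models in these clusters overlap, and a counter can share or drop such reads. In GENCODE M21, on build GRCm38 and not the build of the table, 11 of the 34 Hox genes overlap another listed gene on the same strand and 14 on the opposite strand. The Hoxc5 model spans Hoxc6, Hoxc8, Hoxc9 and Hoxc10, and the Hoxa3 model Hoxa4, Hoxa5 and Hoxa6, so values of these genes are uncertain by what was shared. Hoxb2 and Hoxb3 overlap the antisense gene Hoxb3os, which was at 1.31 ± 0.23 FPKM in mutants and 1.54 ± 0.094 in controls. Hoxb8, Hoxb9, Hoxc4 and Hoxd12 overlap no listed gene. Of 6 tested noncoding genes of the clusters, limma called 0, none had an unadjusted p under 0.05 and 0 had an adjusted p under 0.05 in the authors' deposited table. The shares over all genes were 1.53%, 13.7% and 5.49%. Hotairm1, a noncoding gene of HoxA, averaged 1.58 ± 0.50 FPKM in mutants and 2.05 ± 0.42 in controls. Hoxa11os, antisense to Hoxa11, averaged 13.2 FPKM in both groups.

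Cofactors bind DNA together with Hox proteins. Of 8 tested cofactor genes 1 passed limma, higher, and 7 did not. An unadjusted limma p under 0.05 was found for 3, 2 were higher in the authors' deposited table, and the median log2 fold change was 0.12. Of all genes tested, limma called 0.475% higher, and 13.7% had an unadjusted limma p under 0.05. In the authors' deposited test, 1.75% of all genes were higher. Meis1, a cofactor that also marks stroma, averaged 16.8 ± 0.88 FPKM in mutants and 13.6 ± 1.34 in controls (limma adjusted p = 0.117; 0.0263 in the authors' deposited table). Pbx2, Meis2 and Pknox1 averaged 48.4, 51.4 and 12.4 FPKM in mutants and 47.9, 49.0 and 12.5 FPKM in controls. Of 9 tested partners and targets of Hox11 in the metanephric mesenchyme, 2 fell (1.05% of all genes tested did), 7 did not pass, and the median was -0.16. Pax2, a partner in the Hox11 complex, was at 25.2, 20.1, 28.7 and 23.0 FPKM in mutants and at 39.9, 34.1 and 34.9 in controls (log2 fold change -0.57; limma adjusted p = 0.0495). Wt1 averaged 41.9 ± 0.95 FPKM in mutants and 56.1 ± 1.81 in controls (-0.41; limma adjusted p = 0.0156). Eya1, the other partner, averaged 15.7 FPKM in mutants and 17.5 in controls, and the target Gdnf 14.5 in mutants and 15.6 in controls. The target Six2 averaged 41.1 ± 8.52 FPKM in mutants and 53.5 ± 8.03 in controls, with 3 mutants below all controls (log2 fold change -0.39; limma adjusted p = 0.384). Pax2 kept its call only without mutant replicate 3 and Wt1 only without control replicate 3 or mutant replicate 1 or 3, with adjusted p up to 0.203 and 0.134 in the other omissions.

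Chromatin regulators and genes that flank the clusters showed no call. Over all genes, 1.53% were called by limma, 13.7% had an unadjusted limma p under 0.05 and 5.49% passed in the authors' deposited table. At such a share, 0 limma calls in lists this short says little. Of 26 Polycomb and Trithorax genes, which keep Hox genes silent or active, limma called 0, with 2 at an unadjusted p under 0.05, 0 in the authors' deposited table, and a median log2 fold change of -0.01. Scmh1 and Rnf2, both of Polycomb complex 1, averaged 6.45 and 37.2 FPKM in mutants and 5.65 and 33.2 FPKM in controls. Ezh2, the Polycomb methyltransferase, averaged 49.0 FPKM in mutants and 47.6 in controls, and Kmt2a 4.06 in mutants and 4.54 in controls. Of 15 genes next to the clusters, limma called 0, with 1 at an unadjusted p under 0.05, 0 in the authors' deposited table, and a median of 0.02. Mtx2, beside HoxD, averaged 26.6 ± 1.92 FPKM in mutants and 29.5 ± 0.90 in controls (limma adjusted p = 0.412). Skap2, beside HoxA, averaged 10.7 ± 0.60 FPKM in mutants and 9.09 ± 0.14 in controls (limma adjusted p = 0.158).

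Markers of several cell types differed between the same groups. Of all genes tested, limma called 0.475% higher and 1.05% lower in mutants, and 13.7% had an unadjusted limma p under 0.05. In the authors' deposited test, 1.75% of all genes were higher and 3.74% lower. Of 10 nephron progenitor markers 4 fell and 1 rose, 6 had an unadjusted p under 0.05, 4 were lower and 1 higher in the authors' deposited table, and their summed FPKM was 180 to 202 in mutants and 251 to 258 in controls. Cited1, Uncx and Tmem100 averaged 5.25, 7.99 and 4.64 FPKM in mutants and 23.8, 34.1 and 8.42 FPKM in controls, and Crym 51.6 in mutants and 38.0 in controls. Of 12 stromal markers 2 rose and 10 did not pass, 5 had an unadjusted p under 0.05 and 5 were higher in the authors' deposited table, with a sum of 735 to 925 in mutants and 568 to 779 in controls. The 2 were Aldh1a2, which makes retinoic acid, at 195 FPKM in mutants and 140 in controls, and Ntn1 at 31.5 in mutants and 22.5 in controls. Of 12 ureteric markers 1 rose, Calb1, at 71.6 FPKM in mutants and 43.1 in controls, while 8 had an unadjusted p under 0.05, and 5 were higher and 2 lower in the authors' deposited table. Of 7 tested proximal tubule markers 2 fell, all 7 had negative fold changes and an unadjusted p under 0.05 (median -1.27), and 5 were lower in the authors' deposited table, with sums for the 8 listed of 27.3 to 67.3 in mutants and 93.6 to 111 in controls. These were the transporter genes Slc22a6 and Slc3a1, at 2.5 and 1.62 FPKM in mutants and 7.21 and 6.12 FPKM in controls. Skeletal muscle markers summed to 9.44 to 10.7 in mutants and 10.1 to 82.1 in controls, the top value being control replicate 1, and limma called 0 of the 4 tested, with 0 at an unadjusted p under 0.05 and 0 in the authors' deposited table. Actc1 and Mylpf averaged 2.96 and 2.29 FPKM in mutants and 11.1 and 7.65 FPKM in controls, where control replicate 1 alone had 26.2 and 17.8. Of 2 tested neuronal markers 1 fell, Elavl4, at 1.10 FPKM in mutants and 2.08 in controls, and the listed ones summed to 4.28 to 9.07 in mutants and 5.62 to 11.4 in controls. Endothelial markers summed to 145 to 151 in mutants and 129 to 139 in controls, and immune markers to 29.0 to 34.4 in mutants and 25.4 to 27.2 in controls. Limma called 0 of these 5 and 6, with 1 and 3 at an unadjusted p under 0.05 and 0 and 1 in the authors' deposited table. Pecam1 and Emcn averaged 37.7 and 30.7 FPKM in mutants and 34.1 and 26.7 FPKM in controls, and Pf4 and Cd68 7.79 and 3.37 in mutants and 5.41 and 2.77 in controls. Of 2 tested adrenal and gonad markers 1 rose, Mc2r, at 1.87 FPKM in mutants and 1.06 in controls, and the listed ones summed to 11.6 to 13.4 in mutants and 9.50 to 10.9 in controls. With 1 library left out, Cited1 and Uncx were called in all 7 fits, Tmem100 in 5, Crym in 3, Aldh1a2, Calb1, Slc22a6 and Slc3a1 in 2 each, Elavl4 in 1, and Ntn1 and Mc2r in 0 (limma adjusted p from 0.0536 and 0.0514 up to 0.212 for both). No listed marker was at 0 in any library. With the muscle level as a covariate 0 Hox genes passed limma and 12 had an unadjusted p under 0.05. That level, a mean log2 value, was 3.54 in control replicate 1 and 1.58 to 1.70 in the other libraries, so this fit comes close to leaving that library out and is no separate check. What part these cell types have in the Hox values was not tested.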

How the data were processed

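Whole mouse kidneys were profiled by RNA-seq in 7 libraries, and groups and replicate numbers were read from the sample titles. The submitters' processing notes name build mm39 (GRCm39), HTSeq 0.6.1p2 and STAR 2.6.0c, with Trim Galore 0.5.0 and FastQC 0.11.5. The authors' notes also name DESeq2. Roles, strand setting and the gene length behind FPKM are not given in the sources used here. Libraries were made with a directional NEB kit, per the labels' protocols.

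The authors deposited 1 table of 16167 genes with FPKM per library. Per the file headers it also holds a baseMean (a normalized signal from counts), a log2 fold change with its error, a test statistic (a score), a p-value and an adjusted p-value, which were copied and not recomputed. The lowest baseMean was 18.5, and no gene below that count has a row.

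Reads were recovered from each gene's FPKM shares, its baseMean and the libraries' size factors. They lay within 0.05 of whole numbers for 100% of entries, and their sum is the depth given. Genes with at least 1 FPKM in at least 3 libraries (13466; 2701 left out) were tested with limma 3.58.1 (R 4.3.3) on log2(FPKM + 1), trended and robust, two-sided, with Benjamini-Hochberg adjustment over all of them. limma-voom on the recovered reads called 211 genes. The ratio tests between Hox genes were added after seeing the data. They ran in scipy 1.17.1 under Python 3.11.15, tables in pandas 2.3.3 and numpy 2.4.6, and figures in matplotlib 3.10.9. The fit was tested on simulated data.

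The members and gene lists were chosen with earlier results of these data known. Hox rows are named with their group means, and some items that the rule names are not reported here. Apart from the controls of Hoxa9, values in every library are given for Hox genes called by limma or in the deposited test, those of paralogue groups 9 to 11, Hoxb7 and the highest gene of each cluster. Of each list, up to 4 called members or the 2 with the smallest p come under the rule. Others named were chosen after their values were seen. Hox genes with no row in the table were not analysed here.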

Additional observations from a re-analysis of the deposited data

Results flagged for a closer look

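Among the 34 Hox genes and the 4 cluster sums, 2 values lay far from the other mutant libraries, both in mutant replicate 3; such a gap turns up in about 1 in 20 groups by chance. Hoxa10 was at 38.7 FPKM there, against 49.2 to 50.1 in the other mutants. Hoxd3 was at 5.36 FPKM there, against 4.82 to 4.85 in the other mutants. That library also had the highest embryonic globin, with Hbb-y at 10.5% of Hbb-bs against 1.38% to 2.24% in the other mutants and 1.34% to 3.45% in controls, and the part of this in the Hox values was not tested.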

How the results depend on the processing

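The 3 Hox calls came to 1 with a pseudocount of 0.1, 1 with a minimum of 5 FPKM and 1 in limma without trend and robust steps, in each case Hoxd12, and to 10 with array weights, 8 in the authors' deposited test and 0 with the muscle level as covariate (12 at an unadjusted p under 0.05), which nearly amounts to leaving out control replicate 1. With the replicate number as a block 0 passed and 10 reached an unadjusted p under 0.05. The labels do not say whether the numbers pair the libraries. Deviations of same-numbered libraries correlated at -0.156, 0.0276 and 0.098, and those of other mutant and control libraries at -0.253 to 0.141. These values show no pairing by number, but so few libraries cannot exclude it. With the replicate block Hoxd12 had a log2 fold change of 0.58 (limma adjusted p = 0.146). Leaving out 1 library gave 0 to 6 Hox calls and 11 to 486 calls over all genes. The 206 calls over all genes came to 109 with a pseudocount of 0.1, 60 with a minimum of 5 FPKM, 1302 with array weights, 2 with the replicate block, 22 with the muscle covariate and 886 in the deposited test. Without a filter, and with quantile normalization, size factors, limma-voom or the globin ratio as covariate, the Hox count stayed at 2 or 3, but the genes changed in 2 of these. Quantile normalization called Hoxc8 and lost Hoxc10 (limma adjusted p = 0.0583). The globin ratio left Hoxd12 and Hoxc8, with limma adjusted p at 0.0543 for Hoxb2 and 0.0582 for Hoxc10. The other settings of this group kept Hoxb2, Hoxc10 and Hoxd12. Among Hox genes given in every library, sign changes were found for Hoxa10 (0.03 with the globin ratio; leaving out 1 library gave -0.08 to 0.05, above 0 without control replicate 2 or mutant replicate 3) and Hoxc11 (0.02 with quantile normalization, 0.07 with array weights, 0.00 by limma-voom, and -0.13 to 0.10 with 1 library left out, above 0 without control replicate 3), neither of which was called in any setting. Hoxa2, Hoxa3, Hoxa6 and Hoxd1 also changed sign, with 1 library left out, between -0.01 and 0.12, -0.04 and 0.06, -0.23 and 0.03, and -0.09 and 0.07, and were not called. The cause of these changes was not tested. All tested Hox genes but Hoxd1 and Hoxa4 had at least 178 reads in each library.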

Other observations

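Rarb, Rarg and Cyp26b1, which read or clear retinoic acid, a signal that acts on Hox clusters from their low-number end, had higher values in mutants without passing limma, and Rara was level between the groups within their spread. Of 6 tested axial regulators limma called 0, with 3 at an unadjusted p under 0.05 and 3 higher in the authors' deposited table, and the median log2 fold change was 0.18. The shares over all genes were 1.53% called, 13.7% at that unadjusted limma p and 1.75% higher in the authors' deposited table. The receptor gene Rarb was at 19.0, 20.3, 19.4 and 18.8 FPKM in mutants and at 15.4, 15.9 and 16 in controls (log2 fold change 0.28, SE 0.058; limma adjusted p = 0.0557). Cyp26b1, which breaks retinoic acid down, was at 6.47, 6.61, 8.74 and 6.27 FPKM in mutants and at 4.45, 5.19 and 3.65 in controls (0.56, SE 0.13; limma adjusted p = 0.0775). The receptor gene Rarg averaged 15.3 FPKM in mutants and 12.4 in controls, and Rara 11.7 in mutants and 11.8 in controls. All mutants lay above all controls for Rarb, Rarg and Cyp26b1, as they do, upward, for 5.93% of all genes tested. Gdf11, a ligand that shifts Hox domains along the trunk, averaged 13.1 FPKM in mutants and 12.9 in controls.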
